A study of Mus musculus with 6 samples.

Results

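Translation initiation and elongation factors were taken as the genes whose symbol begins with Eif1 to Eif6, Eef1 or Eef2, together with Etf1 and the Gspt genes. Eif2ak3, which encodes the kinase PERK, was left out. The rule goes by symbol and matched 73 of the 22298 genes in the table. The RNA came from MIN6, an insulin-secreting line derived from a mouse insulinoma, grown at passages 32 to 40. The groups were 3 control samples and 3 samples of chronic epinephrine, the stress hormone that acts on beta cells through adrenergic receptors. In the study's culture scheme cells received 100 nM epinephrine for 3 days and were then cultured without it for 2 days, and the day of RNA collection is not stated. All samples are of a single tumour-derived line and no genetic change distinguishes the groups. The study describes its replicates in general as biological and independent. The labels do not say whether these samples were separate cultures, so the p-values measure only the spread between these samples.

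Protein synthesis starts when eIF2 carries the initiator tRNA to the small ribosomal subunit and the eIF4 proteins bring the mRNA to it by its cap. eIF3 holds this assembly together, and eIF1, eIF1A and eIF5 govern the choice of the start codon. eIF2B recharges eIF2 with GTP, and kinases that phosphorylate eIF2 in stressed cells slow this exchange, while the translation of a few mRNAs such as Atf4 goes up. The 4E-binding proteins hold the cap-binding protein eIF4E away from eIF4G unless mTORC1 phosphorylates them. During elongation eEF1A delivers aminoacyl-tRNA, the eEF1B subunits recharge eEF1A, and eEF2 moves the ribosome along. Beta cells devote much of their translation to proinsulin. Transcript levels, as measured here, do not show the phosphorylation of these proteins or the rate of translation.

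Total expected counts were between 15017065 and 18127171 per sample. All 14 beta cell markers were over 1 FPKM (fragments scaled to transcript length and sample total) in every sample. Of these 14, 3 were called lower after epinephrine, where 0.612% of all genes tested were, and none was called higher. Control 1 stood apart from the other controls. Across genes, its log2 CPM (counts scaled to the sample total) correlated at 0.981 and 0.980 with controls 2 and 3, against 0.994 to 0.995 within the other pairs of a group. Of the 68 members that could be tested, control 1 lay below both other controls for 38 and above both for 25. It was thus outside their range for 92.7% of members and for 87.6% of all genes tested. The counts of called members are therefore also given without control 1. Some lists of other cell types differed between samples. The 24 hepatocyte markers summed to 22.9, 72.2 and 152 FPKM in controls 1, 2 and 3 and to 43.2 to 45.0 after epinephrine. Alb was at 0.10, 16.7 and 40.3 in the controls and 0.14 to 0.22 after epinephrine. Gc rose instead, at 15.3, 20.6 and 27.8 in the controls and at least 33.7 in each epinephrine sample. Most of the hepatocyte sum in control 1 and after epinephrine was Gc. The 6 skeletal muscle markers summed to 2.81 to 4.10 FPKM in the controls and to 69.4, 54.5 and 1.65 in chronic epinephrine 1, 2 and 3. Ckm and Tnnt3 were listed at 0 in every control and in chronic epinephrine 3. Of the exocrine pancreas markers 11 were in the table, 6 of them were listed at 0 in all samples, and the list summed to 0.31 to 1.03 FPKM. Leukocyte and blood markers summed to 0.68 to 3.06 FPKM and fibroblast markers to 0.34 to 5.2. Of the former, the macrophage marker Cd68 was called higher, at 0.60, 0.28 and 0.46 FPKM in the controls and 2.73, 1.75 and 2.40 after epinephrine. Only 2 of the 9 genes on that list were tested, and no other was called. Hbb-bs went the other way, at 0.74, 0.18 and 0.30 FPKM in the controls and listed at 0 after epinephrine. The markers of other islet cells summed to 174.6 to 204.9 FPKM in the controls and 364.8 to 391.9 after epinephrine, nearly all of it Gcg. The part of these markers in the results was not tested. In such bulk samples, fewer cells of a type and less RNA per cell cannot be told apart.

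Transcripts of the translation factors were mostly higher after chronic epinephrine by a small amount, and only Eif4ebp1, Eef1g and Eef1akmt3 passed the test. All 3 were upregulated at a false discovery rate (FDR) under 0.05 in edgeR, which is 4.41% of the 68 members tested, against 2.02% of the 12747 genes tested. None was downregulated (0.612% of all genes). In edgeR 0 members were lower at an unadjusted p under 0.05 (7.91% of all genes), and 0 were called lower in DESeq2 (1.98%). Eif4ebp1 and Eef1akmt3 also changed at least 2-fold, a threshold passed by 0.635% of all genes as higher and 0.0863% as lower. DESeq2 called 5 members, these 3 with Eif1 and Eif5, where it called 3.09% of its genes as higher.

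By sign alone, 55 of the 68 members were higher after epinephrine, compared with 49.5% of all genes tested. Over the members the median log2 fold change (log2FC) was 0.16, and over all genes it was -0.00. An unadjusted p under 0.05 was reached by 18 members, all of them higher, where 9.19% of all genes were. The epinephrine samples lay entirely above the controls for 24 members (35.3%, against 14.3% of all genes). They lay entirely below for Eif4ebp2 alone, where 13.0% of all genes did. Relative to the mean of the controls, the median over members was -0.07, 0.02 and 0.06 in controls 1, 2 and 3, and 0.19, 0.14 and 0.16 in chronic epinephrine 1, 2 and 3. As a share of all counts, the members took 1.5%, 1.54% and 1.56% in the controls and 1.78%, 1.68% and 1.75% after epinephrine. Each epinephrine sample was thus above each control in both measures.

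**Figure D1:**
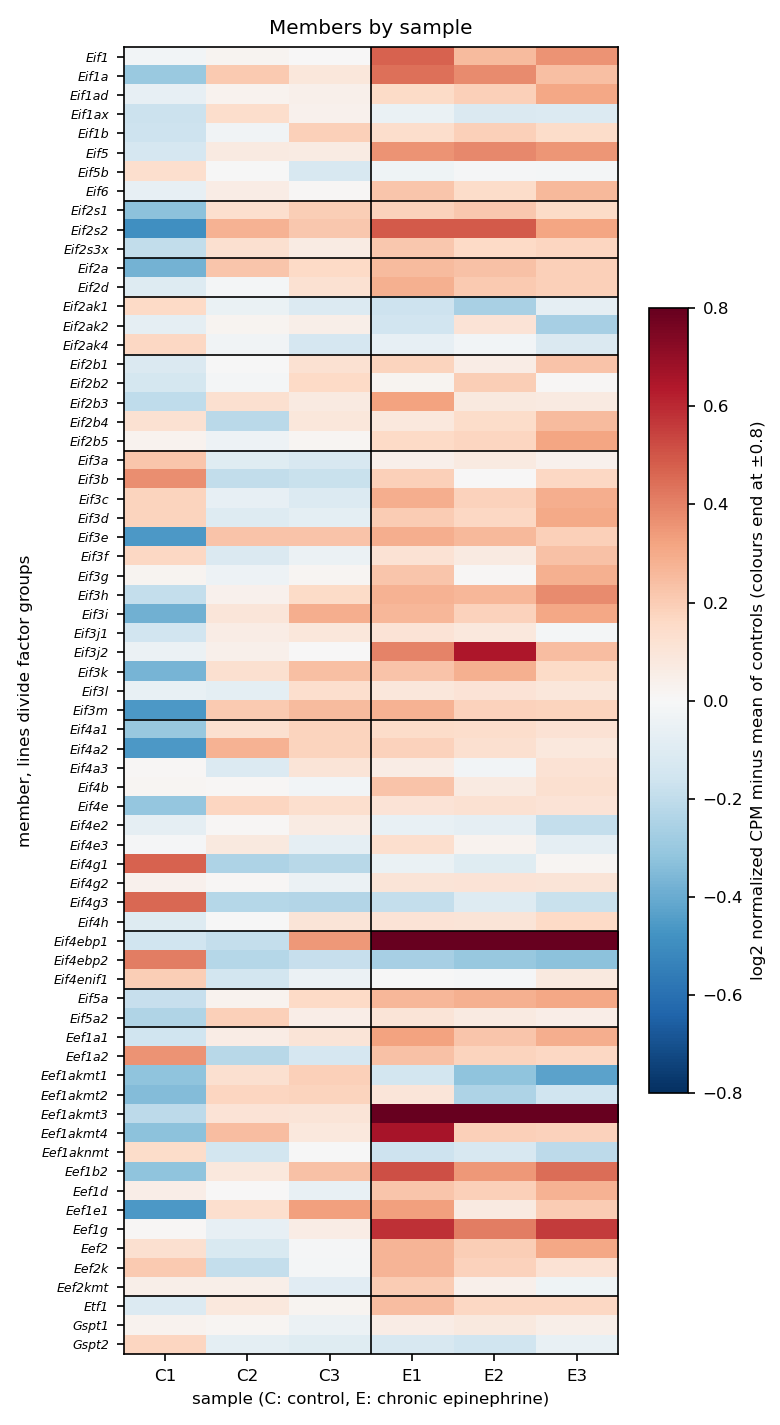
Log2 normalized CPM of the 68 tested members (rows, divided into factor groups) in each of the 6 samples (columns), minus the mean of the 3 controls, with colours that end at 0.8 in either direction. The epinephrine columns are mostly red, control 1 holds both the deepest blue and the deepest red among the controls, and Eif4ebp1 and Eef1akmt3 run past the end of the scale.

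Without control 1 many more genes were called, and so were many more members. In this fit of 2 controls against 3 epinephrine samples, 24 members were called higher and 2 lower, with 12.1% and 9.46% of all genes called in these directions. The members called lower were Eif1ax and Eef1akmt1. All 3 members called with every sample were among the 24. The median log2FC over members was then 0.10, and 52 of 68 were higher by sign against 50.3% of all genes. A fit with an offset for the length and GC content of transcripts, which was added once the data had been seen, gave 9 members higher and 1 lower, with 6.26% and 4.1% of all genes. All 10 of these were also called without control 1.

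**Figure D2:**
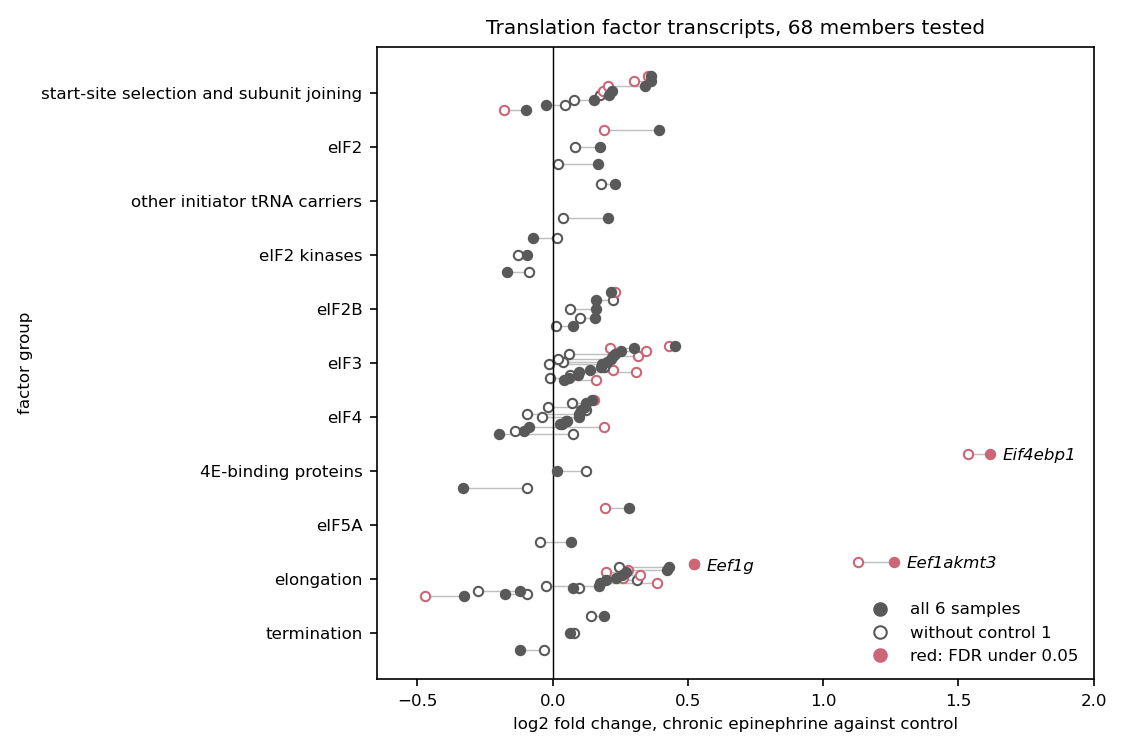
Log2FC after chronic epinephrine (x axis) of each tested member, by factor group (y axis), from all 6 samples (filled points) and without control 1 (open points, joined by a line, hidden where both coincide). Red marks an FDR under 0.05, which 3 filled points and 26 open points reach, and most points of both kinds lie right of 0.

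The deviation of control 1 moved with the composition of the transcripts. Over the 68 members, the difference between control 1 and the mean of controls 2 and 3 in log2 CPM had a Pearson's r of 0.55 with the GC content of the longest transcript and of 0.34 with its log2 length. These are descriptions across genes that share the same libraries. Over all genes tested the values were 0.42 and 0.41. The 5 members that lay farthest below the other controls in control 1, Eif2s2, Eif3e, Eif3m, Eef1e1 and Eif4a2, were 0.69 to 0.74 below them on the log2 scale and had a GC content of 36.2% to 44.1%. Eif3j2, at 40.1% GC, deviated by -0.07. Eif4g1 and Eif4g3 lay 0.71 and 0.69 above them. In the 23 members of lowest GC the median log2FC was 0.11 with control 1 and 0.03 without it. In the 23 of highest GC it was 0.16 with control 1 and 0.18 without it.

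**Figure D3:**
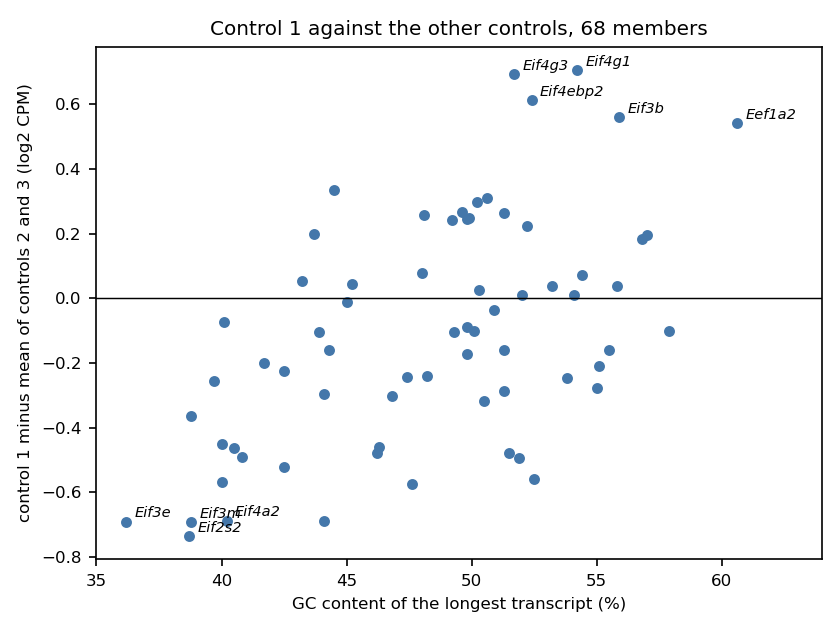
Difference between control 1 and the mean of controls 2 and 3 (y axis, log2 normalized CPM) against the GC content of the longest transcript (x axis, percent) for the 68 tested members. AT-rich transcripts such as Eif2s2 and Eif3e lie lowest in control 1, Eif4g1 and Eif4g3 lie highest, and Pearson's r is 0.55.

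Many mRNAs of the translation machinery begin with a C followed by a run of pyrimidines, a terminal oligopyrimidine start through which mTORC1 and LARP1 control their translation. The RefSeq promoters on GRCm38.p6 matched 54 members with 69 start sites. A pyrimidine start was scored as a C followed by at least 4 bases of C or T within 5 bases of the annotated start on the gene strand. It was found at 16 of the 69 member starts (23.2%) and at 18.4% of the 32851 starts in the reference. Starts with the shortest run, of 5 bases, are not shown. As examples of longer runs, 6 starts with runs of 6 to 15 bases are given. Each is shown from base -5 to base 15, with the pyrimidine run in capitals. Cap sites were not measured, and the annotated start of a gene, Eef1a1 included, may lie away from its cap site. A run in capitals can then be promoter DNA that is not part of the mRNA.
Eef1a1 (chr9:78481710-78481729, minus strand): CCCTCTTCCCgagggtgggg
Eif3f (chr7:108934410-108934429, plus strand): gCTCTCTCTCTTTCTCggca
Eif3l (chr15:79075218-79075237, plus strand): CTTCTTCCgctctctcccac
Eif2s3x (chrX:94212637-94212656, minus strand): ttttCCTTTTCTCTCCgagc
Eif2b5 (chr16:20498812-20498831, plus strand): tCTCTCCCTgcaactacacc
Eif4g1 (chr16:20672722-20672741, plus strand): gctccgCCCTCTgcgccggt
The 12 tested members scored with such a start had a median log2FC of 0.10 and 9 were higher by sign. The 40 scored without it had a median of 0.16 and 32 were higher. This split goes by annotated starts, and the 40 may hold genes whose mRNA does begin with pyrimidines. Eef2 is among the 40, and its region shown further below ends in a pyrimidine run outside the scored window. The remaining 16 tested members, which include Eif4ebp1, Eef1g and Eef1akmt3, had no promoter to search, and had a median of 0.22 with 14 higher. Without control 1 the medians were 0.15, 0.08 and 0.16, with 11, 27 and 14 higher.

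Stress-responsive elements were also sought in the same promoters, from 250 bases before to 50 bases after the start, on both strands. The letters TGATGNAA are the core of the element that ATF4 and C/EBP proteins can bind, and TGACGTCA is the full cyclic AMP response element. The former was present in 2 of the 69 member promoters (2.90%, against 3.97% of all), those of Eef2k and Eif2s3x, where it lies on the minus strand of the gene at bases -84 to -77 and -96 to -89. The latter was present in 1 (1.45%, against 1.79% of all), that of Eef2, at bases 3 to 10 after the start. The motifs are shown in capitals on the gene strand.
Eef2k (chr7:120851094-120851123, plus strand): ctttctgcttgTTTCATCAagctcagcttg
Eif2s3x (chrX:94212729-94212758, minus strand): ttcgccatcatTTTCATCAggtctatgccg
Eef2 (chr10:81176622-81176651, plus strand): aggccgggcgtTGACGTCAgcggtctcttc
A match describes the letters only. Without the offset for length and GC content, none of these 3 members was called in edgeR with all samples. With it, Eef2 was called (FDR 0.0104). The 3 members called in edgeR with all samples and no offset had no promoter to search.

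Among the 4E-binding proteins, Eif4ebp1 was upregulated and had the largest change of all members. It encodes 4E-BP1, the repressor of cap-dependent initiation, and lies on chromosome 8 from 27260329 to 27276674 (ENSMUSG00000031490). Its normalized CPM were 9.0, 8.8 and 13.0 in the controls and 32, 30.4 and 32.1 after epinephrine. The lowest epinephrine sample was thus far above the highest control, which was control 3. The group values were 10.3 ± 2.38 and 31.5 ± 0.935 (SD, n = 3), a 3.07-fold rise with a log2FC of 1.62 (SE 0.15, FDR 0.00199). Its FDR ranged from 5.55e-17 to 0.0287 over the alternatives. Leaving out each sample in turn kept it called in 6 of 6 fits, and without control 1 the log2FC was 1.54. The hepatocyte list was also highest in control 3, and its part in the spread of the controls was not tested.

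Eif4ebp2 encodes 4E-BP2, the related repressor that is prominent in neurons. Its normalized CPM were 212.5, 136.7 and 140.7 in the controls and 132.7, 129.5 and 127.2 after epinephrine. The groups did not overlap, but control 1 alone set most of the distance between them. The log2FC was -0.33 (SE 0.16, FDR 0.347), and without control 1 it was -0.09 (FDR 0.216). Eif4enif1 encodes 4E-T, which takes eIF4E into the nucleus and into P-bodies, and it had a log2FC of 0.02 (FDR 0.951). Eif4ebp3 was listed at 2.04 counts in control 2, 1.77 in chronic epinephrine 2 and 0 elsewhere, and it was not tested.

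The mixture of the 4E-BP transcripts also differed between the groups by its range. On the FPKM scale, which allows genes to be compared, Eif4ebp1 was 10.9%, 15.7% and 21.2% of the sum of Eif4ebp1 and Eif4ebp2 in the controls. After epinephrine it was 41.2%, 40.4% and 42.2%. The means were 15.9% ± 5.11 and 41.3% ± 0.903 (SD, n = 3). They differed by 25.3 percentage points, and by 13.3 when expected counts, which are not scaled to length, took the place of FPKM. An exact permutation test, two-sided, had p = 0.1, which is the lowest value possible with 3 samples a group, and 0.22 after adjustment over 11 paralog pairs.

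**Figure D4:**
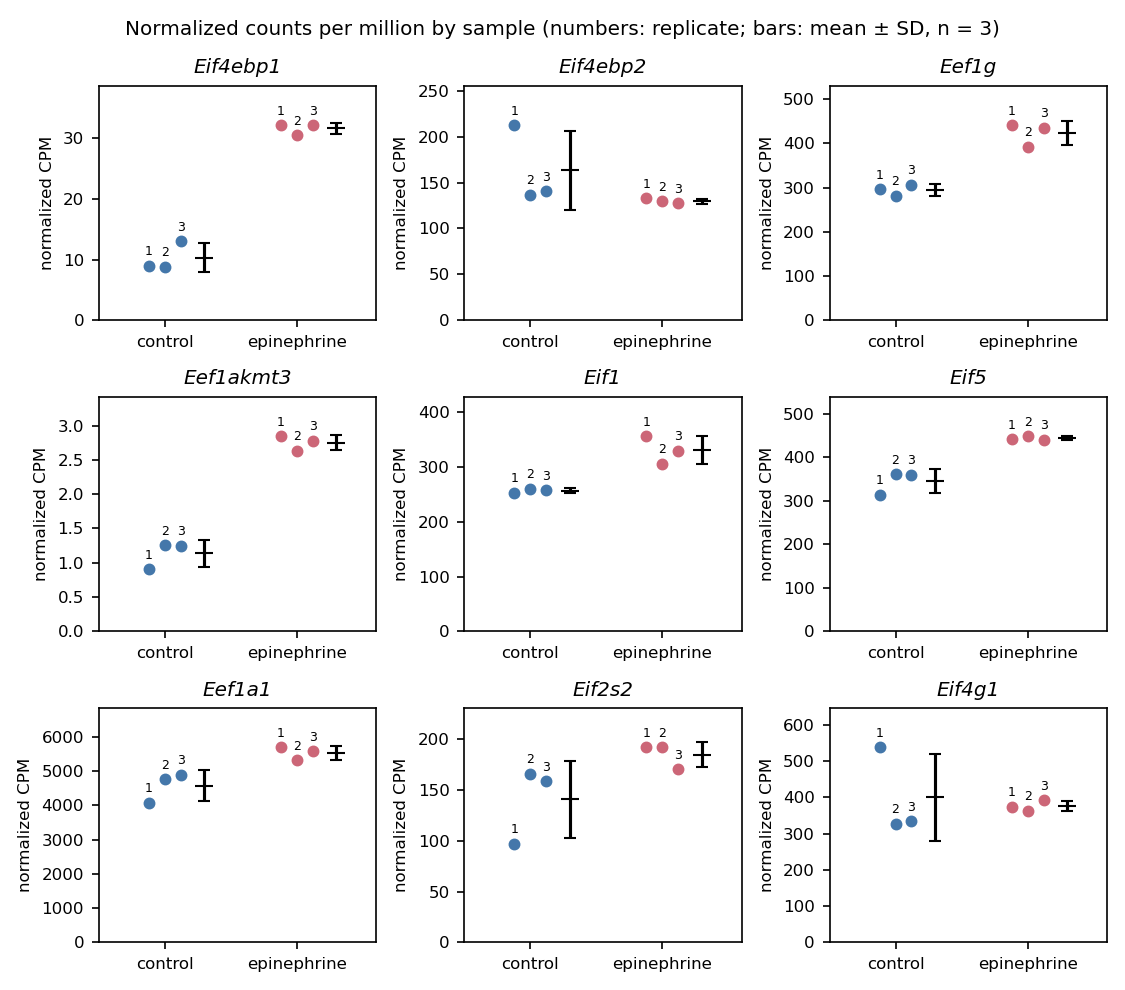
Normalized CPM (y axes, each from 0) of 9 members in the 3 control (blue) and 3 chronic epinephrine (red) samples, with replicate numbers and the mean ± SD of each group. Eif4ebp1, Eef1g and Eef1akmt3 separate clearly, whereas in Eif4ebp2, Eif2s2 and Eif4g1 control 1 lies apart from the other 5 samples.

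The group of start-site selection and subunit joining, also formed by symbol, was higher in 6 of 8 members by sign, with a median log2FC of 0.22. In edgeR without the offset none passed the FDR, and 5 had an unadjusted p under 0.05, all higher (9.19% of all genes). DESeq2 called Eif1 and Eif5 higher (3.09% of its genes). With the offset, Eif1a and Eif5 were called higher (6.26% of all genes). Without control 1, 4 were called higher and 1 lower (12.1% and 9.46% of all genes). Eif1, the gatekeeper that prevents initiation at poor start codons, had normalized CPM of 252.3, 260.0 and 257.1 in the controls and 355.8, 305.8 and 329.1 after epinephrine. Every epinephrine sample was above the controls, which lay close together. Its log2FC was 0.36 (SE 0.09, FDR 0.0730 in edgeR and 0.00361 in DESeq2). It shared 19.2% of its 50-base windows with other genes, so part of its reads may be ambiguous. Eif5, which makes eIF2 hydrolyse its GTP once the start codon is found, had 313.6, 361.1 and 359.7 in the controls and 441.4, 448.3 and 440.3 after epinephrine. These groups did not overlap, and the epinephrine samples were nearly equal. The log2FC of Eif5 was 0.36 (SE 0.09, FDR 0.0763 in edgeR and 0.00276 in DESeq2). Without control 1, the log2FC was 0.35 for Eif1 (FDR 2.88e-05) and 0.30 for Eif5 (FDR 3.17e-05).

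The paired genes Eif1a and Eif1ax encode almost the same eIF1A protein, which helps the ribosome scan. Eif1a had normalized CPM of 47.8, 68.4 and 62.8 in the controls and 80.1, 76.8 and 70.0 after epinephrine, with a log2FC of 0.34 (SE 0.13, FDR 0.242). Eif1ax had 78.6, 97.6 and 90.6 against 85.3, 81.6 and 82.0, with a log2FC of -0.10 (SE 0.10, FDR 0.647). Control 1 was the lowest control for both. Without it, Eif1a was called higher (log2FC 0.21, FDR 0.0229) and Eif1ax lower (-0.18, FDR 0.0224). The share of Eif1a in their summed FPKM was 57.7%, 60.6% and 60.1% in the controls and 68.2%, 67.7% and 65.8% after epinephrine. This share did not overlap between the groups and does not rest on control 1, since its mean difference was 7.76 percentage points with all samples and 6.88 without control 1 (exact permutation test p = 0.1, adjusted 0.22). Eif1b, a close relative of Eif1, had a log2FC of 0.15 (FDR 0.504), which was 0.08 without control 1 and 0.26 without control 3.

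Of the remaining members of this group, which were named after their values were seen, Eif1ad and Eif6 had log2FC values of 0.22 and 0.21 (FDR 0.235 and 0.245). Their groups did not overlap. Eif6 encodes the factor that keeps the large ribosomal subunit from joining too early. Eif5b, which promotes that joining, had a log2FC of -0.02 (FDR 0.920), which was 0.04 without control 1 and with the offset.

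The subunits of eIF2 were higher by sign in 3 of 3 tested members, and none was called in edgeR without the offset. With the offset Eif2s2 was called higher (log2FC 0.39, FDR 0.0373), where 6.26% of all genes were. Eif2s2, which encodes the beta subunit, had normalized CPM of 97.4, 166.2 and 158.9 in the controls and 192.4, 192.4 and 170.4 after epinephrine. Control 1 was much lower than every other sample. The log2FC was 0.39 (SE 0.18, FDR 0.324), and it was 0.19 without control 1 (FDR 0.0186). Eif2s1, which encodes the alpha subunit that the stress kinases phosphorylate, had 64.4, 88.7 and 92.5 against 91.8, 93.9 and 90.0, and only control 1 lay outside a narrow range. Its log2FC was 0.17 with all samples and 0.02 without control 1 (FDR 0.573 and 0.840). Eif2s3x, for the gamma subunit, had a log2FC of 0.18 (FDR 0.422) and shared 34.6% of its windows with other annotated genes. Its Y-linked copy Eif2s3y was listed at 6 counts in chronic epinephrine 1 and at 0 in the other samples. Eif2a and Eif2d, which can bring initiator or other tRNA to the ribosome without eIF2, had log2FC values of 0.20 and 0.23 (FDR 0.531 and 0.259). Without control 1 they were 0.04 for Eif2a, 0.18 for Eif2d and 0.08 for Eif2s3x.

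The 3 eIF2 kinases among the members were lower by sign, while PERK, which the rule leaves out, was higher by sign (log2FC 0.22, FDR 0.303). Eif2ak1 encodes HRI, the heme-regulated kinase that also responds to mitochondrial stress. It had normalized CPM of 51.0, 43.8 and 42.1 in the controls and 40.5, 38.0 and 43.2 after epinephrine, with a log2FC of -0.17 (SE 0.10, FDR 0.444), which was -0.09 without control 1. Eif2ak2 encodes PKR, which senses double-stranded RNA, and had a log2FC of -0.10 (FDR 0.724). Eif2ak4 encodes GCN2, which senses uncharged tRNA, and had a log2FC of -0.07 (FDR 0.775), which was 0.02 without control 1. The groups overlapped for all 3, and none had an unadjusted p under 0.05.

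eIF2B had 5 of 5 subunits higher by sign, with a median log2FC of 0.16 and a range of 0.08 to 0.22, and the median was 0.10 without control 1. This count rests on the expected counts, since the mean of Eif2b4 was lower after epinephrine on the FPKM scale, where control 2 was its highest sample. Eif2b5 encodes the catalytic epsilon subunit that exchanges the nucleotide. It had normalized CPM of 73.3, 69.8 and 72.8 in the controls and 80.3, 81.2 and 89.5 after epinephrine. Here control 1 lay with the other controls. The log2FC was 0.22 (SE 0.08, FDR 0.225), and it was 0.23 without control 1 (FDR 0.00737). Eif2b2, the beta subunit, had the smallest value of the group, 0.08 (FDR 0.763), which was 0.01 without control 1. On the FPKM scale the control means of the 5 subunits ran from 9.75 to 28.5.

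All 14 genes of eIF3, the large scaffold of the initiation complex, were higher by sign, and none was called in edgeR without the offset. Their median log2FC was 0.19 and they ranged from 0.04 for Eif3a to 0.45 for Eif3j2. With the offset Eif3c was called higher (log2FC 0.27, FDR 0.0432), where 6.26% of all genes were. Summed over the 14 genes, FPKM was 911.5, 972.9 and 1014 in the controls and 1106, 1067 and 1103 after epinephrine. The sum was higher in each epinephrine sample than in each control. In control 1 the genes of this complex did not move as a block, as 6 were above and 8 below the mean of the other controls. Eif3b, Eif3c and Eif3d lay 0.56, 0.27 and 0.26 above it on the log2 scale. Eif3e and Eif3m, named after their values were seen, both lay 0.69 below it.

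Without control 1, 7 of the 14 were called higher (12.1% of all genes), and 5 of these stood high in control 1. Eif3h and Eif3j2 were also called and lay below the other controls in it. Eif3c, a core subunit, had normalized CPM of 300, 253.2 and 245.7 in the controls and 325.0, 301.8 and 324.5 after epinephrine. Its log2FC was 0.25 with all samples (SE 0.10, FDR 0.245) and 0.35 without control 1 (FDR 1.11e-05). Eif3b had 159.3, 106.9 and 108.7 against 140.2, 123.3 and 137.6, and moved from 0.10 (FDR 0.791) to 0.31 (FDR 0.000291). For Eif3d, a cap-binding subunit, the change was from 0.22 (FDR 0.306) to 0.32 (FDR 0.000134). By sign 12 of the 14 were higher without control 1. The 2 that were lower, at -0.01 each, were Eif3j1 and Eif3m.

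Eif3a, the largest subunit, had a log2FC of 0.04 (FDR 0.880), which turned to -0.02 without control 2 or without control 3 and was 0.16 without control 1 (FDR 0.0163). Eif3j2 had normalized CPM of 19.8, 21.2 and 20.6 in the controls and 27.2, 32.4 and 24.5 after epinephrine (log2FC 0.45, SE 0.12, FDR 0.0977). Its groups did not overlap, but 91.8% of its 50-base windows are also found in Eif3j1 or another gene, so its count is uncertain. Eif3j1 itself had a log2FC of 0.06 (FDR 0.792). In control samples 12 of the 14 genes had mean levels of 42.9 (Eif3b) to 141.0 (Eif3h) FPKM. The exceptions were Eif3j1 and Eif3j2, at 10.2 and 8.69. The genes with the pyrimidine starts printed above, Eif3f and Eif3l, had log2FC values of 0.14 and 0.09 (FDR 0.532 and 0.629). Without control 1 they were 0.22 and 0.07 (FDR 0.00518 and 0.476).

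The eIF4 group holds factors that bind the cap and unwind the mRNA leader. It was formed by symbol, so not every gene in it need have this role. Its 11 tested genes had a median log2FC of 0.10, which was 0.05 without control 1. None was called and none had an unadjusted p under 0.05, and 8 were higher by sign. Eif4b, a cofactor of the helicase, had the highest value, 0.15 (FDR 0.404). Its normalized CPM were 374.2, 371.3 and 363.4 in the controls and 432.4, 389.3 and 404.8 after epinephrine, without overlap. Without control 1 it was called (0.15, FDR 0.0318), as was Eif4g1, which makes 2 of 11 genes against 12.1% of all genes. Eif4e, the cap-binding protein that 4E-BP1 holds, had 126.4, 176.6 and 172.1 in the controls and 168.9, 170.5 and 169.1 after epinephrine. Apart from control 1 its samples spanned a narrow range, and its log2FC was 0.10 with control 1 and -0.04 without it (FDR 0.745 and 0.625).

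Eif4g1 and Eif4g3 encode scaffolds that join cap-binding protein, helicase and eIF3. Eif4g1 had normalized CPM of 538.6, 326.8 and 333.4 in the controls and 374.5, 362.6 and 392.1 after epinephrine. Control 1 was above all epinephrine samples, and the other controls were below all of them. The log2FC of Eif4g1 was thus -0.09 (SE 0.18, FDR 0.848) with all samples, and without control 1 it was 0.19 (FDR 0.00671). With the offset for length and GC content it was 0.04. Eif4g3 had 195.3, 121.1 and 120.1 against 124.0, 131.7 and 125.0, the lowest value of the group at -0.20 (FDR 0.626), and 0.07 without control 1. The helicase genes Eif4a1 and Eif4a2 had log2FC values of 0.12 and 0.10 (FDR 0.687 and 0.814), which were -0.02 and -0.10 without control 1. Eif4e2, a cap-binding relative that can repress translation, had -0.11 (FDR 0.578). The copies Eif4a3l1 and Eif4a3l2 and the oocyte form Eif4e1b were listed at 0 counts in all samples, each of which allows up to 3 counts, or 0.165 to 0.200 CPM. These limits cover counting error only.

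Of the eIF5A genes, whose hypusine-bearing proteins ease the ribosome over difficult stretches, Eif5a was the more abundant by far. It had normalized CPM of 253.0, 293.0 and 320.8 in the controls and 345.9, 350.0 and 357.1 after epinephrine. The groups did not overlap, and control 1 was the lowest sample. Its log2FC was 0.28 (SE 0.10, FDR 0.203), and it was 0.19 without control 1 (FDR 0.00664). Eif5a2 had a log2FC of 0.07 (FDR 0.814), which was -0.05 without control 1.

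Elongation factors and their modifiers held 2 of the 3 called members (2.02% of all genes were called higher). Of 14 tested genes 11 were higher by sign, with a median log2FC of 0.21, and 6 had an unadjusted p under 0.05, all higher (9.19% of all genes). Without control 1, 7 were called higher and 1 lower (12.1% and 9.46% of all genes). Eef1g encodes the gamma subunit of eEF1B, which anchors the complex that recharges eEF1A, and lies on chromosome 19 from 8967041 to 8978479 (ENSMUSG00000071644). Its normalized CPM were 296.0, 281.5 and 306.7 in the controls and 441.2, 392.2 and 435.2 after epinephrine. The lowest epinephrine sample was well above the highest control, and control 1 lay between the other controls. It rose from 294.7 ± 12.7 to 422.9 ± 26.7 (SD, n = 3), with a log2FC of 0.52 (SE 0.09, FDR 0.0182). The log2FC stayed between 0.48 and 0.57 when a sample was left out. The call at an FDR under 0.05 was kept in 1 of these 6 fits, that without control 1 (FDR 5.51e-08), and the FDR was 0.0517 to 0.170 without any of the other samples. Windows shared with pseudogenes such as Gm4366 and Gm5525 made up 44.2% of Eef1g, so some of its reads could be assigned elsewhere.

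The other subunits of eEF1 did not pass the FDR in edgeR with all samples and no offset. With the offset Eef1b2 was called (log2FC 0.35, FDR 0.0147). Eef1b2, the beta subunit with exchange activity, had normalized CPM of 124.5, 164.8 and 183.0 in the controls and 222.8, 197.4 and 212.3 after epinephrine. Its groups did not overlap (log2FC 0.42, SE 0.14, FDR 0.172), and its exons overlap those of Ndufs1 on the other strand. Eef1d, the delta subunit, named after its values were seen, had 64.5, 62.4 and 59.7 against 72.7, 71.2 and 75.4 (log2FC 0.23, SE 0.08, FDR 0.181). Eef1a1, the main form of eEF1A, had 4081, 4760.0 and 4902 in the controls and 5703, 5317 and 5578 after epinephrine. All epinephrine samples were above all controls (log2FC 0.27, SE 0.10, FDR 0.203). Eef1e1, an eEF1-associated gene, had overlapping groups and a log2FC of 0.17 (FDR 0.696), which was -0.03 without control 1. Without control 1, Eef1b2, Eef1d and Eef1a1 were called at 0.28, 0.26 and 0.20. Eef1a1 was also the member of highest level, at 2587 FPKM in the controls and 3071 after epinephrine, and 39.4% of its windows are shared with pseudogenes.

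Eef1a2, the form of eEF1A found in muscle and neurons, made up under 1% of the eEF1A transcripts in every sample. Its normalized CPM were 19.6, 12.9 and 13.7 in the controls and 17.9, 17.2 and 17.0 after epinephrine, and control 1 was the highest sample. The log2FC was 0.18 (FDR 0.626), and it was 0.39 without control 1 (FDR 0.00557). The muscle markers were at 69.4 and 54.5 FPKM in chronic epinephrine 1 and 2 and at 1.65 in chronic epinephrine 3, and the part of muscle RNA in the values of Eef1a2 was not tested.

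eEF2, the translocase, had normalized CPM of 2150.0, 1803 and 1956 in the controls and 2369, 2251 and 2430.0 after epinephrine. The groups did not overlap, and control 1 was the highest control. The log2FC of Eef2 was 0.25 (SE 0.09, FDR 0.213), and it was 0.32 without control 1 (FDR 2.15e-05) and 0.30 with the offset (FDR 0.0104). Its kinase Eef2k, which phosphorylates and halts eEF2, was among the members of lowest level at 2.43 FPKM in the controls and 2.5 after epinephrine. It had a log2FC of 0.20 (FDR 0.509), which was 0.31 without control 1 and 0.09 without control 2.

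Among the enzymes that methylate these factors, Eef1akmt3 was upregulated. It encodes a lysine methyltransferase of eEF1A and lies on chromosome 10 from 127031004 to 127041513 (ENSMUSG00000080115). Normalized CPM were 0.906, 1.26 and 1.25 in the controls and 2.85, 2.63 and 2.78 after epinephrine. All epinephrine samples were more than 2 CPM and all controls less, and the mean rose from 1.14 ± 0.201 to 2.75 ± 0.109 (SD, n = 3). The log2FC was 1.26 (SE 0.22, FDR 0.0245). With a sample left out the log2FC was between 1.13 and 1.33. The call was kept in 1 of these 6 fits, that without control 1 (FDR 0.00625), and the FDR was 0.0717 to 0.174 in the others. At 0.42 FPKM in the controls it was the tested member of lowest level. Its exons overlap those of Mettl1 on the other strand, and reads of these genes cannot be told apart unless strand was used in counting. Mettl1, a tRNA methyltransferase gene, was also called, at 15.7 CPM in the controls and 23.7 after epinephrine (log2FC 0.60, SE 0.12, FDR 0.0359).

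Without the offset, none of the other eEF1A methyltransferases was called with all samples. Eef1akmt1 had normalized CPM of 8.74, 12.1 and 12.6 in the controls and 9.90, 8.74 and 8.07 after epinephrine, with control 1 among the epinephrine values. The log2FC was -0.33 (SE 0.16, FDR 0.355), and it was -0.47 without control 1 (FDR 0.00548) and -0.46 with the offset (FDR 0.0277). Eef1akmt4 had a log2FC of 0.43 (SE 0.28, FDR 0.490) at 1.36 FPKM in the controls, with overlapping groups. Its log2FC was 0.24 without control 1 and 0.21 without chronic epinephrine 1. Eef1akmt2 and Eef1aknmt had log2FC values of -0.12 and -0.18 (FDR 0.761 and 0.480), which were -0.28 and -0.10 without control 1. The difference between these genes and Eef1akmt3 was not tested.

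Termination factors had 3 tested genes with log2FC values of 0.19 for Etf1, 0.06 for Gspt1 and -0.12 for Gspt2. Etf1 encodes eRF1, which recognises stop codons, and had normalized CPM of 136.8, 156.2 and 149.6 in the controls and 174.8, 165.5 and 165.1 after epinephrine. Its groups did not overlap, with an FDR of 0.300. Gspt1 and Gspt2 encode forms of its partner eRF3, and had FDR values of 0.721 and 0.627. Without control 1, the highest sample of Gspt2, the log2FC values of Etf1, Gspt1 and Gspt2 were 0.14, 0.08 and -0.03.

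The balance between paralogs was compared for 11 pairs as the share of the first gene in their summed FPKM. For 5 pairs the groups did not overlap, which gives the smallest possible exact p of 0.1 and an adjusted p of 0.22. Besides Eif4ebp1 and Eif1a these were Eif5a, at 96.0% in the controls and 96.5% after epinephrine, Gspt1, at 89.9% and 91.1%, and Eif3j1, at 53.9% and 47.3%. The last rests on the uncertain count of Eif3j2. The remaining pairs overlapped. Eif4a1 took 46.1% ± 2.63 in the controls and 46.3% ± 0.923 after epinephrine, Eif4g1 took 77.3% and 78.9% of the sum with Eif4g3, and Eif4e took 69.7% and 73.2% of the sum with Eif4e2. The share of Eif4g1 was 77.3%, 77.1% and 77.4% in the 3 controls, so control 1 did not stand apart in this ratio although it did in the level of each gene.

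**Figure D5:**
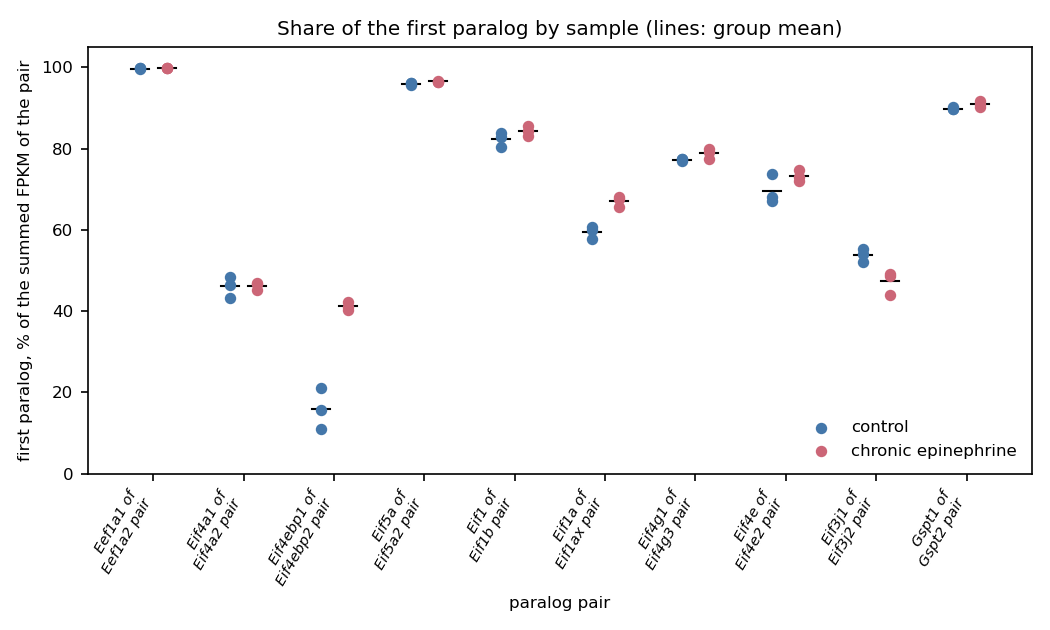
Share of the first paralog in the summed FPKM of a pair (y axis, percent) for 10 pairs (x axis) in the 3 control (blue) and 3 chronic epinephrine (red) samples, with black lines at group means. The share of Eif4ebp1 moves from 15.9% to 41.3% and that of Eif1a from 59.5% to 67.2%, that of Eif3j1 is 53.9% and 47.3%, and the group means of the other 7 pairs lie closer together.

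A wider list of 61 genes that control translation was compared in the same fit, to set the factors beside their regulators. It holds Eif2ak3, which was left out of the members, and genes that do not match the names above. All 61 were tested, 43 were higher by sign with a median log2FC of 0.10, and 2 were called higher (3.28%, against 2.02% of all genes; 3 with DESeq2, against 3.09%), with 0 lower in edgeR and DESeq2 and with 8 higher and 2 lower at an unadjusted p under 0.05 (9.19% and 7.91% of all genes). Trib3, a pseudokinase induced through ATF4, had normalized CPM of 19.9, 17.7 and 15.6 in the controls and 49.2, 47.4 and 43.3 after epinephrine. These groups lay far apart (log2FC 1.40, SE 0.11, FDR 0.00123, and 0.0210 at most over all alternatives). Ppp1r15a, which encodes the phosphatase subunit GADD34 that reverses eIF2 phosphorylation, had 47.1, 42.7 and 39.4 against 73.2, 72.0 and 70.6, and every epinephrine sample was far above the controls. It rose by a log2FC of 0.74 (SE 0.09, FDR 0.0060). It missed the FDR without chronic epinephrine 1 or 2, at 0.0622 and 0.0631. PERK (Eif2ak3), the kinase of the endoplasmic reticulum, had 63.6, 51.4 and 56.4 against 65, 65.3 and 69.2 without overlap, and was called without control 1 (0.30, FDR 0.00085). Without control 1, 17 genes of the list were called higher and 2 lower (12.1% and 9.46% of all genes).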

How the data were processed

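The authors extracted total RNA with Trizol, and libraries were sequenced on an Illumina Novaseq6000 by Gene Denovo Biotechnology. The genome build in the submitters' processing notes is GRCm38. The aligner, counting tool, annotation and use of strand are not given in the sources used here. The authors' deposited table holds 2 values per gene and sample. The authors' expected count is an estimated count that is not scaled between samples, and their FPKM is scaled to length and depth. Since 8.34% of the expected counts had decimals, all were rounded before testing. A total of 12747 genes kept by filterByExpr were scaled by TMM and tested in edgeR 4.0.16 (R 4.3.3) by quasi-likelihood with group as the only term. The FDR was adjusted over these genes by the method of Benjamini and Hochberg. Normalized CPM are counts relative to the TMM-scaled sample total, and levels of different genes were compared only as FPKM. Fold changes of genes near the filter rest on few counts, and totals of 15017065 to 18127171 counts set the precision.

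Of the 73 members 68 were tested. The members, factor groups, wider list and markers were chosen with earlier results of these data known. Named were members called at an FDR under 0.05, the highest and lowest member of each factor group, the paralog pairs, called genes of the wider list, the 3 members of highest and of lowest FPKM, and 5 further members called without control 1. Others were named after their values were seen. Marker lists covered beta cells, hepatocytes, exocrine pancreas, other islet cells, leukocytes and blood, fibroblasts and skeletal muscle. Paralog shares were compared by exact two-sided permutation tests (SciPy 1.17.1). Positions, transcript length, GC content and shared 50-base windows came from GENCODE mouse release 21 on GRCm38, and start sites from RefSeq on GRCm38.p6. Alternatives were other scalings, DESeq2 1.42.0, limma 3.58.1 on log2(FPKM + 1) and log2(FPKM + 0.1), other filters of low counts, the replicate number as a block, leaving out each sample, counts in place of FPKM for paralog shares, and an offset for transcript GC and length that was added once the data had been seen. Only the main edgeR fit was tested on simulated data, which held no sample that deviates as control 1 does.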

Additional observations from a re-analysis of the deposited data

How the results depend on the processing

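The direction of the members as a whole was stable, while the number of calls was not. The median log2 fold change was 0.10 to 0.19 with a sample left out and 0.13 to 0.16 under the other alternatives. The members called numbered 26 without control 1 and 1 without any other sample, 5 with DESeq2 and 10 with the offset for length and GC content, against 3. Of the members called, 2 were lower without control 1 and 1 with the offset. Of all genes, 12.1% were called higher without control 1, 0.341% to 1.17% without any other sample and 3.09% with DESeq2. With the offset 6.26% were called higher, against 2.02%. The shares called lower were 9.46%, 0.00775% to 0.317%, 1.98% and 4.1% in the same order, against 0.612%. At least 2-fold changes numbered 1 to 2 with a sample left out and 1 with limma on log2(FPKM + 1), against 2. Members without overlap between groups numbered 28 to 39 with a sample left out, against 25. Of all genes 14.3% did not overlap as higher and 13.0% as lower with all samples, 47.3% in either direction without control 1, and 33.4% to 36.8% without any other sample. Calls in the wider list numbered 1 to 19, and 8 with the offset, against 2. Ppp1r15a missed the FDR without chronic epinephrine 1 or 2 (0.0622 and 0.0631), when the list had 1 call.

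Deviations of samples with the same replicate number correlated at 0.0257, 0.112 and -0.0601, so the numbers were not taken as pairs. With the replicate block 1 member was called, Eif4ebp1, and 1 of at least 2-fold, where 1.18% of all genes were called higher, and Eef1g and Eef1akmt3 had FDR values of 0.0544 and 0.0833.

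For 45 named genes, 666 of 720 values under alternatives kept their direction and side of the FDR threshold, 14 lost the call, 27 gained one and 13 reversed. Reversals came mostly without control 1, and the log2 fold changes with a sample left out ran from -0.138 to 0.0165 for Eif2ak4, -0.221 to 0.189 for Eif4g1, -0.322 to 0.0738 for Eif4g3, -0.0115 to 0.104 for Eif3j1, -0.0186 to 0.208 for Eif4a1, -0.0965 to 0.233 for Eif4a2, -0.0412 to 0.176 for Eif4e and -0.0468 to 0.160 for Eif5a2. Eif3a ran from -0.0236 (without control 3, and -0.0177 without control 2) to 0.162, and Eif3b from -0.0117 (without control 2) to 0.310. With the offset, Eif2ak4 was at 1.52e-05 and Eif4g1 at 0.0417. The share difference of Eif4a1 and Eif4a2 ran from -1.25 to 1.35 percentage points with a sample left out, against 0.15, and that of Eef1a1 and Eef1a2 from -0.0329 to 0.0559, against 0.02. With expected counts in place of FPKM none of the 11 share differences reversed, and that of Eif4ebp1 was 13.3 percentage points, against 25.3. The causes were not tested. Members with few counts, such as Eef1akmt3 and Eef1akmt4, have the widest errors.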

Other observations

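The deposited FPKM of a gene is not a fixed multiple of its expected count in every sample. For Eif2b4, the subunit delta of eIF2B, the ratio of FPKM to CPM differed 2.14-fold between samples, while for the next member, Eef2kmt, it differed 1.22-fold. The mean FPKM of Eif2b4 was 15.7 in the controls and 14.5 after epinephrine, and its mean CPM was 22.9 and 25.6. The means on these scales thus put the groups in opposite order. Its FPKM was 13.21, 21.15 and 12.79 in the controls and 17.24, 12.62 and 13.69 after epinephrine. The order of the FPKM means therefore rests on control 2. Eif2b4 had a log2 fold change of 0.16 on counts (FDR 0.538), and it was named after its values were seen.

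Among genes of the wider list that were named after their values were seen, the poly(A)-binding protein gene Pabpc4 had normalized CPM of 82.5, 60 and 66.6 in the controls and 93.3, 90.9 and 97.0 after epinephrine (log2 fold change 0.43, FDR 0.112), and Paip2b, an inhibitor of poly(A)-binding protein, had 109.9, 129.5 and 128.7 against 164.9, 151.1 and 160.1 (log2 fold change 0.37, FDR 0.0864). Without control 1 both were called, at 0.57 and 0.30 (FDR 7.16e-08 and 0.000186).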
